A study of Homo sapiens with 16 samples.

Results

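The axon guidance genes of the semaphorin, plexin, SLIT and netrin families were followed in BRAF inhibitor–resistant melanoma cells treated with the CoREST inhibitor corin. Members were the protein-coding genes whose GENCODE symbol begins with SEMA3 to SEMA7 or PLXN, together with the neuropilins, SLIT1 to SLIT3, ROBO1 to ROBO4, the netrins NTN1, NTN3, NTN4 and NTN5, the netrin-Gs and the netrin receptors DCC and UNC5A to UNC5D. The rule itself rests on names and uses no measured value. It gave 49 genes of the 34228 in the count table, and 4 antisense transcripts whose symbols also matched were left out because they are not protein-coding. The 49 were 20 semaphorins, 9 plexins, 2 neuropilins, 3 SLITs, 4 ROBOs, 4 netrins, 2 netrin-Gs and 5 netrin receptors.

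The libraries came from 2 human melanoma lines, both selected for resistance by growth in rising doses of the BRAF inhibitor PLX4032 and kept in 5 μM of it: 451Lu-R, an MITF-hi/AXL-lo line, and 1205Lu-R, which is MITF-lo/AXL-hi. Each line was treated for 24 hours with 2.5 μM corin, a bivalent inhibitor of the histone deacetylases and of the demethylase LSD1 within the CoREST repressor complex, or with its vehicle DMSO, and each of the 4 groups had 2 libraries of polyA RNA. The design lists these arms without PLX4032, apart from the arms that received it with or without corin. When the PLX4032 of the maintenance culture was removed is not given. Titles of these libraries name the lines without the R that the PLX4032 titles carry, and the paper gives the cells as resistant. The sources used here do not say whether the 2 libraries of a group came from separate cultures, so the p-values below measure only the spread between these libraries. Each line stands for 1 tumor-derived population, and a difference between the lines cannot be told apart from differences in their origin, passage or selection. The comparisons ask which guidance genes corin changed in each line, whether the 2 lines responded alike, and how the lines differed before and after the drug.

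Guidance cues steer growing axons and migrating cells, neural crest cells among them, from which melanocytes arise. Semaphorins signal through plexins, whose cytoplasmic part acts on small GTPases of the Ras and Rap families. The secreted class 3 semaphorins mostly need a neuropilin as coreceptor, whereas the membrane-bound classes bind plexins directly. SLITs repel through ROBO receptors, and netrins attract through DCC and repel through UNC5 receptors, which have also been described as dependence receptors that signal cell death when no ligand is bound. CoREST was named for its partnership with REST, a repressor that binds RE1 sites in neuronal genes, and it is also recruited by Snail-type factors that bind E-boxes.

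The libraries held between 9516687 and 11797788 estimated counts, and the members took between 2018 and 2510 CPM in a library (counts scaled to library size, after trimmed mean of M values [TMM] normalization over the 8 libraries). Between 41 and 49 of the 49 members had a count in a library. MITF averaged 755 CPM with DMSO in 451Lu-R and 7.45 in 1205Lu-R, AXL averaged 0.0876 and 998 CPM, and SOX10 averaged 722 CPM in 451Lu-R and was at 0 in all 1205Lu-R libraries, where TYR was also at 0. The summed level of 8 neuron markers moved with corin, from 9.53–10.4 to 313.7–314.3 CPM in 451Lu-R and from 52.1–52.3 to 450–460.3 CPM in 1205Lu-R. With DMSO, SYT1, STMN2, NEFL and GAP43 were at 0 in 451Lu-R and STMN2 was at 0 in 1205Lu-R, and with corin none of the 8 was. Summed levels of 6 markers of undifferentiated melanoma went from 699.5–705.2 to 2362–2373 CPM in 451Lu-R but from 7500–7647 to 5663–5696 in 1205Lu-R, and those of 5 fibroblast markers from 48.15–51.68 to 159.5–163 and from 347.7–350.8 to 181.5–184.6. The part of these shifts in the guidance gene results was not tested. In bulk RNA, more cells of a kind and more RNA per cell cannot be told apart.

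**Figure D1:**
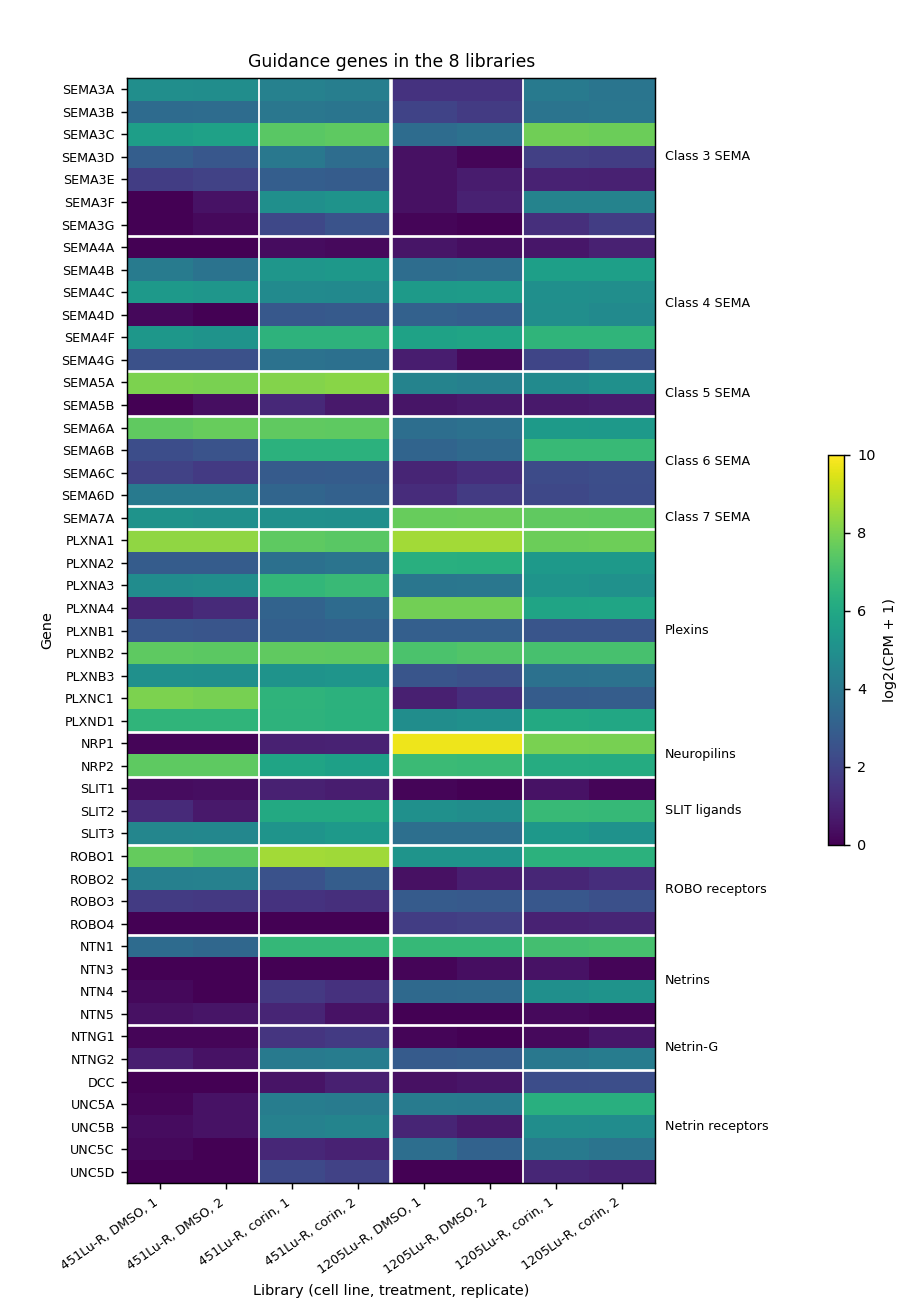
Level of each of the 49 guidance genes (rows, ordered by role) in the 8 libraries (columns, cell line, treatment and replicate), as log2(CPM + 1). NRP1 is the brightest row in the 1205Lu-R DMSO libraries (863 and 865 CPM) and near 0 in 451Lu-R, and UNC5A, UNC5B and SEMA3F turn from dark to bright with corin in 451Lu-R.

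With DMSO the 2 lines differed in their most abundant receptors. Per kilobase of exon, PLXNA1 led in 451Lu-R at a level of 28.8 ± 0.457 CPM per kb (SD, n = 2 libraries), followed by PLXNC1 at 25.1 ± 1.04, PLXNB2 at 24.7 ± 0.883, SEMA5A at 21.0 ± 0.444, SEMA6A at 17.8 ± 0.866 and ROBO1 at 16.8 ± 1.35. The levels of PLXNC1 and PLXNB2 were within their spread of each other, as were those of SEMA6A and ROBO1. In 1205Lu-R, the neuropilin NRP1 led at 75.0 ± 0.0804 CPM per kb, followed by SEMA7A at 54.2 ± 1.52, PLXNA1 at 34.7 ± 0.425, PLXNB2 at 20.5 ± 1.11, NTN1 at 16.0 ± 0.0175 and PLXNA4 at 14.1 ± 0.0165. PLXNA1 and PLXNB2 were the genes common to both sets of 6. Of the 44 members tested between the lines, 20 were higher in 1205Lu-R and 20 were lower (adjusted p under 0.05), against 38.2% and 37.2% of the 16062 genes tested. At 4-fold with an adjusted p under 0.001, 12 were higher and 12 lower, against 9.38% and 9.35%. The filter on low counts could be passed through 1 group alone, which favors large differences. Of those higher, SEMA4D, NRP1, ROBO4, NTN4, UNC5A and UNC5C had 10 or fewer summed counts with DMSO in 451Lu-R. Of those lower, SEMA3D and SEMA4G had 10 or fewer in 1205Lu-R.

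The coreceptor NRP1 had 1 count in each 451Lu-R DMSO library, against 863 and 865 CPM in 1205Lu-R, a ratio of 9329 with a counting interval of 2582 to 77040. This interval and the others below are exact 95% intervals from the counts alone. PLXNA4, a class A plexin, had 0.964 and 1.28 CPM in 451Lu-R and 231 in both 1205Lu-R libraries, a log2 difference of 7.68 ± 0.0943 (SE, adjusted p = 6.37e-25). The reverse held for PLXNC1, the plexin that binds SEMA7A, with 259 and 244 CPM in 451Lu-R against 0.846 and 1.46 in 1205Lu-R, a log2 difference of -7.76 ± 0.101 (adjusted p = 1.497e-24). SEMA7A itself was higher in 1205Lu-R, with 202 and 210 CPM against 34.5 and 31.1 (log2 difference 2.64 ± 0.0520, adjusted p = 2.511e-21). The line with the higher SEMA7A was therefore the line with the lower PLXNC1. Transmembrane SEMA5A and SEMA6A were 12.7-fold and 16.6-fold lower in 1205Lu-R, whereas several netrin and UNC5 genes were higher there, with NTN1 10.5-fold higher and the receptors UNC5A and UNC5C at ratios of 71.9 (counting interval 30.5 to 222.9) and 102.8 (28.1 to 855).

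Corin raised more guidance genes than it lowered in both lines. In 451Lu-R, 40 of the 49 members were tested, of which 27 rose, 9 fell and 4 were not called, whereas 41.3% of the 14530 genes tested rose and 38.6% fell. At 4-fold with an adjusted p under 0.001, 13 rose and 0 fell, against 12.4% and 2.72%. This 0 came from edgeR, at 4-fold with an unadjusted p under 0.05 the count was also 0, and DESeq2 gave 0 as well. In 1205Lu-R, 42 were tested, of which 31 rose, 10 fell and ROBO3 was not called, against 40.4% and 37.8% of 14563 genes. At 4-fold, 14 rose and 1 fell, against 11.3% and 1.43%. The gene that fell was PLXNA4, at 4.005-fold, and this count was 0 with DESeq2, RLE size factors, library size alone, a minimum mean of 1 CPM or without corin replicate 1. The median log2 fold change of the tested members was 1.16 in 451Lu-R and 1.35 in 1205Lu-R, beside 0.03 over all genes tested in either line.

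The filter on low counts bears on these numbers, since 10 members in 451Lu-R and 9 in 1205Lu-R passed it only through their corin libraries. Each was below the cutoff of the filter in at least 1 DMSO library, which left little or no room for a fall. Among the 30 members above its cutoff in all 4 libraries of 451Lu-R, 17 rose, 9 fell and 3 rose 4-fold, with a median log2 fold change of 0.45. The same restriction over all genes left 12273, of which 36.6% rose, 42.9% fell and 4.39% rose 4-fold, with a median of -0.07. For 1205Lu-R, 33 members were above the cutoff throughout, and 22 rose, 10 fell, 6 rose 4-fold and 1 fell 4-fold, with a median of 1.12. Over the 12425 such genes of that line, 35.1% rose, 42.9% fell, 4.22% rose 4-fold and 1.12% fell 4-fold, with a median of -0.07.

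Among the 27 genes that rose in 451Lu-R and the 31 that rose in 1205Lu-R, 22 were shared, which is 22 of 27 and 22 of 31. They were 57.9% of the 38 members tested in both lines, against 28.8% of 13200 genes. SEMA4C, PLXNA1 and NRP2 fell in both lines, or 7.89% against 28.5%. SEMA3F, SEMA3G, SEMA6B, UNC5A, UNC5B and UNC5D rose 4-fold in both, against 5.98% of genes, but apart from SEMA6B each of them passed the filter through its corin libraries alone in at least 1 line. Among the 25 members above the cutoff in all 8 libraries, 11 rose in both lines, 3 fell in both and SEMA6B rose 4-fold in both, against 24.3%, 32.5% and 1.4% of 11245 genes. A 4-fold rise was called in 451Lu-R alone for SEMA4D, PLXNA4, SLIT2, NTN1, NTN4, NTNG1 and NTNG2, and in 1205Lu-R alone for SEMA3A, SEMA3B, SEMA3C, SEMA3D, SEMA4B, SEMA4G, PLXNC1 and DCC, which by itself does not show that the lines differed. The difference in response was tested directly, and 16 of 44 members had a higher response in 1205Lu-R and 16 a lower one, against 22.6% and 27.1% of 16062 genes. Of the lower responses, those of SEMA3F, SEMA4D, NRP1, NTN4, UNC5A and UNC5C rest on 10 or fewer summed DMSO counts in 451Lu-R. SEMA3D and SEMA4G, of the higher, had 10 or fewer in 1205Lu-R. As above, the filter could be passed through 1 group alone, which favors large differences.

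**Figure D2:**
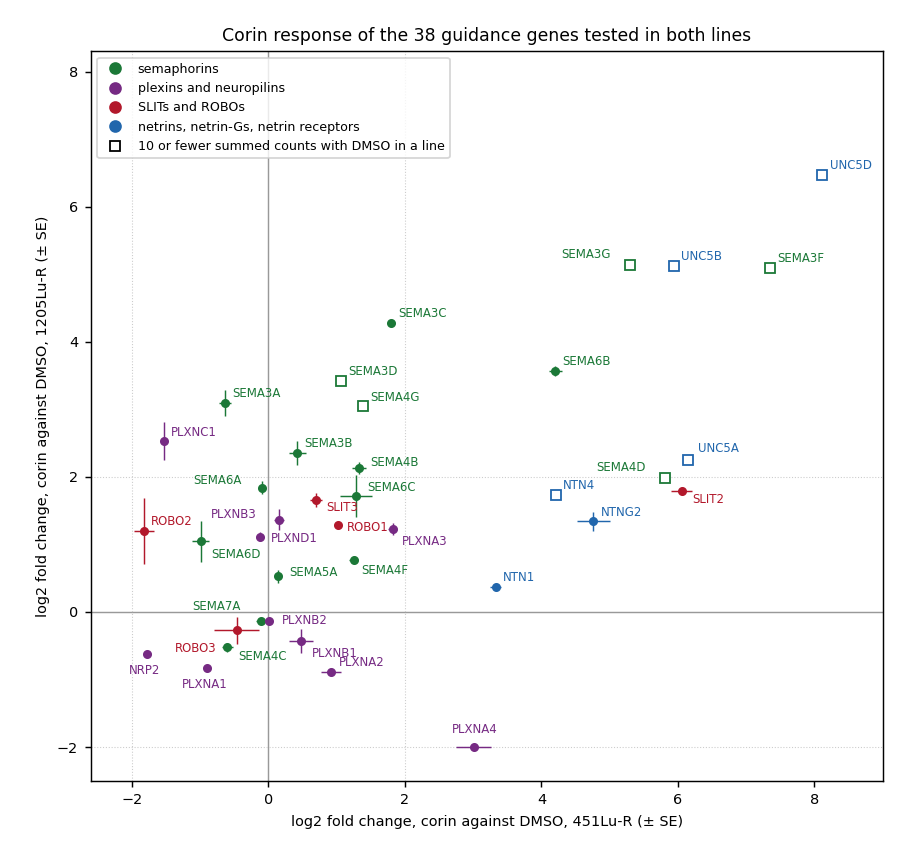
Log2 fold change of corin against DMSO in 451Lu-R (horizontal) and in 1205Lu-R (vertical) for the 38 members tested in both lines, with SE as bars, colored by family. Open squares are genes with 10 or fewer summed counts with DMSO in a line, whose fitted values depend on the prior count and carry no bars, and dotted lines mark a log2 change of 2. Netrin genes and SLIT2 lie to the right, class 3 semaphorins toward the top, and PLXNA4 alone lies at 3.01 and -2.002.

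Summed levels differed in direction between roles. Semaphorins together had 79.4–80.9 CPM per kb with DMSO in 451Lu-R and 139 with corin, and 78.3–81.8 and 152–155 in 1205Lu-R. The plexin and neuropilin sums went down, the plexins from 94.5–98 to 74.8–75.2 CPM per kb in 451Lu-R and from 79.8–81.9 to 57.0–57.1 in 1205Lu-R, and the neuropilins from 13.0–13.2 to 3.72–4.17 and from 82.9 to 26.4–27.2. The 2 plexins with the largest drop were PLXNA1 and PLXNC1 in 451Lu-R and PLXNA1 and PLXNA4 in 1205Lu-R. Without these, picked by their drop in the same libraries, the other 7 together went from 41.7–43.1 to 50.1–51 and from 31.3–32.8 to 34–34.3 CPM per kb. Of the other 7 in 1205Lu-R, PLXNA2, PLXNB1 and PLXNB2 were called lower and PLXNA3, PLXNB3, PLXNC1 and PLXND1 higher. In 451Lu-R, PLXND1 was called lower and PLXNA2, PLXNA3, PLXNA4 and PLXNB1 higher. Netrin receptors went from 0.0751–0.149 to 7.51–7.57 CPM per kb in 451Lu-R and from 4.70–5.09 to 24.0–24.4 in 1205Lu-R. These sums are descriptions and were not tested.

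**Figure D3:**
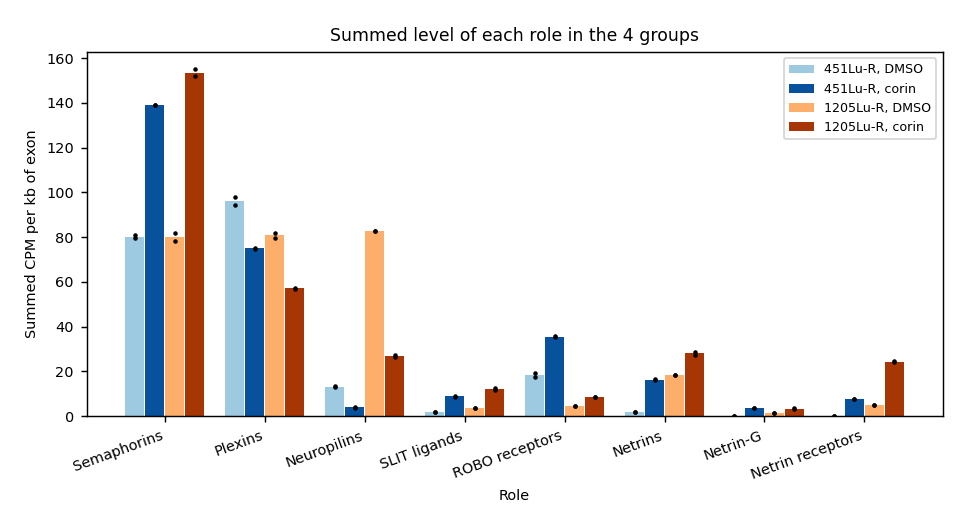
Summed level of the members of each role, in CPM per kb of exon, as the mean of 2 libraries (bars) with each library as a point, for the 4 groups. With corin the semaphorin sum stands at 139 in 451Lu-R and 152–155 in 1205Lu-R, above both DMSO groups, and the plexin and neuropilin sums stand below the DMSO group of their own line.

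The class 3 semaphorins are the secreted members of the family, and several act as repellents of axons and of endothelial and tumor cells. All 7 were tested in 451Lu-R, where 6 rose, against 41.3% of all genes tested, and SEMA3A fell. In 1205Lu-R 6 were tested and all 6 rose 4-fold, against 11.3%. SEMA3F and SEMA3G passed the filter through their corin libraries alone in both lines, as did SEMA3D in 1205Lu-R, so these had to rise. SEMA3F, which signals through NRP2 and class A plexins, had 0 and 4 counts in the 451Lu-R DMSO libraries against 30.8 and 34.4 CPM with corin, a ratio of 175.1 (counting interval 68.1 to 644.4). In 1205Lu-R it went from 0.376 and 0.878 CPM to 21.4 in both corin libraries (log2 change 5.10 ± 0.225, adjusted p = 5.282e-15). The corin levels of SEMA3F therefore lay outside the DMSO range in both lines. SEMA3G, also a neuropilin ligand, had 0 and 2 counts with DMSO against 40 and 47 with corin in 451Lu-R (ratio 44.7, 12 to 374.7), and 1 and 0 counts against 15 and 29 in 1205Lu-R (ratio 43.5, 7.41 to 1757).

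SEMA3C was the class 3 gene with the highest corin level. It had 48.3 and 52.1 CPM with DMSO against 174 and 181 with corin in 451Lu-R (log2 change 1.80 ± 0.0477, adjusted p = 1.287e-17). In 1205Lu-R it had 10.7 and 12.2 CPM with DMSO against 226 and 216 with corin (4.28 ± 0.0620, adjusted p = 1.591e-23), and the response was larger there by 2.44 ± 0.0989 on the log2 scale (adjusted p = 1.055e-14). SEMA3C thus began lower in 1205Lu-R and ended higher. SEMA3B had 10.4 and 10.5 CPM with DMSO against 14.5 and 14 with corin in 451Lu-R (log2 change 0.42 ± 0.122, adjusted p = 0.003865, or 0.09632 with DESeq2), and 3.01 and 2.34 against 13.2 and 14.1 in 1205Lu-R (2.36 ± 0.178, adjusted p = 6.413e-11). SEMA3D had 6.83 and 5.5 CPM against 15.1 and 11.0 in 451Lu-R and summed to under 5 estimated counts with DMSO in 1205Lu-R, where it stood at 27 and 29 counts with corin (ratio 11.1, 4.47 to 35.4). SEMA3E, a PLXND1 ligand, rose in 451Lu-R from 2.54–2.95 to 6.52–7.04 CPM and stayed under 1 CPM in all 4 libraries of 1205Lu-R, where it was not tested.

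The class 3 genes lie in neighborhoods on the genome (hg38, GENCODE 44 gene bounds). SEMA3F at chr3:50155045-50189075 and SEMA3B at chr3:50267558-50277546 are on the same strand with 78.5 kb between them, and SEMA3G at chr3:52433035-52445103 is 2.16 Mb further on. In 451Lu-R, SEMA3B rose 1.34-fold and SEMA3F, next to it, by the ratio of 175.1 given above. SEMA3E, SEMA3A and SEMA3D follow each other on chromosome 7 (chr7:83363238-83649139, chr7:83955777-84492724 and chr7:84995553-85187056) with gaps of 307 and 503 kb, all on the minus strand. In 451Lu-R the outer genes rose with corin while SEMA3A between them fell.

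Promoter sequence is shown for members that rose 4-fold in both lines and had a RefSeq entry, as examples of the rise shared by both lines. Each of those shown passed the filter through its corin libraries alone in at least 1 line. RefSeq (GRCh38.p14) listed promoters for 40 of the 49 members, in 68 entries, and none was listed in that table for NRP1, NTN1, NTN3, NTNG2, SEMA3A, SEMA6A, SEMA6B, UNC5B or UNC5D. The 250 bases before each start site were searched on both strands for the E-box CAGGTG, the AP-1 site TGANTCA, and the partial RE1 sites CAGCACC (left) and GGACAGC (right), of which no 2 overlap in the windows printed here. Capitals mark a match, and each sequence runs 5′ to 3′ on the strand of its gene. Of the listed starts of SEMA3F, only the first, which is printed, held a match. The first start of SEMA3F (chr3:50154808-50155057, plus strand) and the start of SEMA3G (chr3:52445104-52445353, minus strand) each held 1 E-box, 137 and 106 bases before the start, and UNC5A (chr5:176810309-176810558, plus strand) held 1 left RE1 site on the opposite strand, 197 bases before the start.
SEMA3F: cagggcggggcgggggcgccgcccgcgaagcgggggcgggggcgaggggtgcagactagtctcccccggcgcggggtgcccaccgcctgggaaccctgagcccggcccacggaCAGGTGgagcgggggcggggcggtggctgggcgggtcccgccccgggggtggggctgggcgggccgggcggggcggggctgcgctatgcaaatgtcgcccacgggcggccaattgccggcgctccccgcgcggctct
SEMA3G: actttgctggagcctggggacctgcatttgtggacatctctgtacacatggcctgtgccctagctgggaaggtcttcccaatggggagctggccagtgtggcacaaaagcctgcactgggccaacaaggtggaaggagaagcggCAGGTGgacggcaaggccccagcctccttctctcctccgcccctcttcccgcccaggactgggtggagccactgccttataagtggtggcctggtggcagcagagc
UNC5A: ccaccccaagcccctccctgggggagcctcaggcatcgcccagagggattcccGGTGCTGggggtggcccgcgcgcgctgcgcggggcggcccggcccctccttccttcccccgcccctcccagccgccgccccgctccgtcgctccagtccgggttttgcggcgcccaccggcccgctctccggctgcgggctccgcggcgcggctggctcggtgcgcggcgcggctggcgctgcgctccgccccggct
The E-box was found in 13.2% of the members' entries and 17.5% of all 35116, the AP-1 site in 1.47% (1 entry, of PLXNC1) and 6.57%, the left RE1 site in 7.35% and 6.16%, and the right RE1 site in 2.94% and 4.76%. These matches are letters in a window, and binding was not measured here.

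Of the transmembrane class 4 semaphorins, 4 of the 5 tested rose in each line and SEMA4C fell in each. Over all genes tested, 41.3% rose in 451Lu-R and 40.4% in 1205Lu-R. SEMA4D in 451Lu-R and SEMA4G in 1205Lu-R passed the filter through their corin libraries alone, so these had to rise. SEMA4D, the ligand of PLXNB1, had 2.202 and 0 estimated counts with DMSO in 451Lu-R against 65.97 and 58.7 with corin (ratio 64.2, 17.4 to 535.8). In 1205Lu-R it went from 7.52 and 6.83 CPM to 29.8 and 26.7 (log2 change 1.99 ± 0.120, adjusted p = 1.415e-12), just under 4-fold. SEMA4B rose from 16.7 and 13.2 to 37.4 and 39.4 CPM in 451Lu-R and from 10.8 and 11.7 to 49.0 and 48.6 in 1205Lu-R (log2 change 2.13 ± 0.0887, adjusted p = 1.776e-15). SEMA4G had 4.64 and 4.52 CPM against 12.6 and 11.8 in 451Lu-R and 8 and 2 counts against 32 and 53 in 1205Lu-R (ratio 8.40, 4.35 to 18.2). Exons of MRPL43 on the opposite strand cover 22.9% of the SEMA4G exons, and since strand is not given in the sources used here, part of these counts could belong to MRPL43. SEMA4F rose 2.38-fold and 1.71-fold, SEMA4C fell 1.52-fold and 1.44-fold, and SEMA4A stayed at or under 10 counts in every library.

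Class 6 semaphorins are transmembrane ligands of class A plexins that can also signal in reverse. SEMA6B had 4.12 and 4.91 CPM with DMSO against 84.9 and 83.8 with corin in 451Lu-R (log2 change 4.21 ± 0.0989, adjusted p = 2.043e-18), and 8.27 and 9.66 against 105 in both corin libraries of 1205Lu-R (3.57 ± 0.0765, adjusted p = 1.647e-20). SEMA6B was the member with at least 10 counts in every DMSO library whose rise exceeded 10-fold in both lines. SEMA6C rose in both lines by 2.43-fold and 3.28-fold. SEMA5A, among the highest in 451Lu-R, moved little there, from 263 and 255 to 285 and 295 CPM (log2 change 0.14 ± 0.0289, adjusted p = 0.0001978), a call that was lost with scaling to library size alone (adjusted p = 0.1966), and it went from 21.0 and 19.6 to 26.7 and 31.2 CPM in 1205Lu-R. SEMA7A, which is anchored to the membrane by a lipid, had 34.5 and 31.1 against 31.4 and 30.7 CPM in 451Lu-R, where it was not called, and fell from 202 and 210 to 190 and 181 CPM in 1205Lu-R, by 0.14 ± 0.0366 on the log2 scale (adjusted p = 0.001799), a call that scaling to library size alone did not keep (adjusted p = 0.122).

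Receptors of semaphorins moved in both directions. PLXNA1, which pairs with neuropilins, fell from 327 and 320 to 181 and 172 CPM in 451Lu-R (log2 change -0.90 ± 0.0301, adjusted p = 6.095e-16) and from 386 and 393 to 217 and 218 in 1205Lu-R (-0.83 ± 0.0313, adjusted p = 3.489e-16). The difference between these responses was 0.03 ± 0.0470 on the log2 scale, with no call. NRP2 fell 3.42-fold in 451Lu-R and 1.53-fold in 1205Lu-R, and the response differed by 1.12 ± 0.0707 (adjusted p = 1.719e-11). NRP1 fell from 863 and 865 to 253 and 246 CPM in 1205Lu-R (log2 change -1.78 ± 0.0289, adjusted p = 1.34e-22), and in 451Lu-R the counts were 1 and 1 with DMSO against 10 and 9 with corin, too few to be tested. Exons of a long noncoding RNA on the opposite strand cover 4.87% of the NRP1 exons. PLXNB2 changed little, with 184 and 175 against 185 and 185 CPM in 451Lu-R and 144 and 155 against 135 and 135 in 1205Lu-R, where a fall of 0.13 ± 0.0410 on the log2 scale was called (adjusted p = 0.006808) and was lost with DESeq2 (adjusted p = 0.1117). PLXNA3 rose 3.53-fold and 2.34-fold, and PLXNB3, whose exons share 20.4% of their length with SRPK3 on the same strand, rose in 1205Lu-R alone, where the response was larger by 1.17 ± 0.161 (adjusted p = 2.981e-06).

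SLIT2 and SLIT3 were tested and rose in each line, although SLIT2 passed the filter in 451Lu-R through its corin libraries alone. SLIT2 had 1.31 and 0.590 CPM with DMSO against 65.6 and 67.2 with corin in 451Lu-R (log2 change 6.05 ± 0.150, adjusted p = 4.562e-18). In 1205Lu-R it had 31.1 and 28.9 against 105 and 102 CPM (1.80 ± 0.0569, adjusted p = 1.493e-17), and the response was smaller there by a log2 difference of -4.29 ± 0.197 (adjusted p = 8.089e-14). SLIT3 rose 1.61-fold and 3.16-fold. The receptor ROBO1 rose from 196 and 175 to 387 and 381 CPM in 451Lu-R (1.02 ± 0.0350, adjusted p = 7.83e-16), where it became the member with the highest level per kilobase (34.8 ± 0.354 CPM per kb), and from 35.1 in both DMSO libraries to 84.3 and 85.2 in 1205Lu-R (1.29 ± 0.0566, adjusted p = 4.953e-15). ROBO2, its neighbor on chromosome 3 with 947 kb between them, fell in 451Lu-R. ROBO3 was not called in either line. ROBO4, an endothelial ROBO, was at 0 in all 451Lu-R libraries and fell from 27 and 28 counts to 9 and 12.4 in 1205Lu-R (log2 change -1.38 ± 0.362, adjusted p = 0.001568). Unstranded counts of ROBO4 may include noncoding transcripts, of which the longest overlap covers 11.2% of its exons.

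Among the netrin ligands, NTN1, the best-known secreted netrin, rose from 10.3 and 9.04 to 100 and 98.9 CPM in 451Lu-R (log2 change 3.33 ± 0.0795, adjusted p = 2.585e-18). That brought it to the level of the 1205Lu-R DMSO libraries, which stood at 102 CPM, and corin took the latter to 129 and 134 CPM (0.38 ± 0.0401, adjusted p = 2.04e-08). The response of NTN1 was lower in 1205Lu-R by a log2 difference of -2.99 ± 0.0879 (adjusted p = 4.618e-17). NTN4, a laminin-binding netrin, had 2 and 0 counts against 25 and 16 in 451Lu-R (ratio 21.1, 5.47 to 179.7) and 9.68 and 9.95 against 30.8 and 33.8 CPM in 1205Lu-R. The membrane-anchored NTNG2 rose from 0.788 and 0.393 to 16.6 and 17.2 CPM in 451Lu-R (4.76 ± 0.239, adjusted p = 3.78e-13) and from 6.29 and 6.63 to 15.2 and 17.2 in 1205Lu-R, so that the corin levels of the 2 lines overlapped. NTNG1 had 1 and 1 counts against 22 and 22 in 451Lu-R (ratio 22.6, 5.89 to 192.4) and 1 and 0 against 2 and 6 in 1205Lu-R, where it was not tested. In 451Lu-R, NTN4, NTNG1 and NTNG2 passed the filter through their corin libraries alone, so these had to rise there.

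All netrin receptors that could be tested rose, 3 of 3 for 451Lu-R and 5 of 5 for 1205Lu-R, against 41.3% and 40.4% of all genes tested. All 3 of the former and DCC, UNC5B and UNC5D of the latter passed the filter through their corin libraries alone, which left little or no room for a fall. UNC5A had 1 and 4 counts with DMSO against 205 and 162 with corin in 451Lu-R (ratio 75.4, 32.01 to 233.5), and 16.7 and 16.6 CPM against 79.1 and 78.4 in 1205Lu-R (log2 change 2.26 ± 0.0702, adjusted p = 1.106e-17). UNC5B had 3 and 4 counts against 227 and 212 in 451Lu-R (ratio 64.4, 31.0 to 161.1), and 11 and 6 against 278 and 324 in 1205Lu-R (5.13 ± 0.192, adjusted p = 2.889e-16). The UNC5B response did not pass the test of a difference between the lines (log2 difference -0.85 ± 0.548, adjusted p = 0.2503), whereas that of UNC5A did (adjusted p = 6.645e-09). Both tests rest on few DMSO counts in 451Lu-R, 3 and 4 for UNC5B and 1 and 4 for UNC5A. UNC5D was at 0 in all 4 DMSO libraries and had 41 and 28 counts with corin in 451Lu-R, at least 11.7-fold above a floor of 3 counts per library, and 11 and 11 counts in 1205Lu-R, at least 3.65-fold above it. DCC, the attractive receptor, had 4 and 5 counts against 40 and 49 in 1205Lu-R (ratio 9.77, 4.92 to 22.1) and went from 0 and 0 to 5 and 8 counts in 451Lu-R, where it was not tested. UNC5C rose from 11.1 and 7.90 to 16.0 and 13.5 CPM in 1205Lu-R (0.64 ± 0.149, adjusted p = 0.0005346), while the 451Lu-R libraries had 2 and 0 counts against 13 and 9. The repulsive UNC5A and UNC5B stood above DCC in both lines with corin. Per kilobase they also did so with DMSO, although on few counts apart from UNC5A in 1205Lu-R. With corin, UNC5A had a level of 4.03 ± 0.209 CPM per kb in 451Lu-R and 18.2 ± 0.0998 in 1205Lu-R, UNC5B had 3.06 ± 0.203 and 4.16 ± 0.00446, and DCC had 0.0484 ± 0.0209 and 0.321 ± 0.0109.

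**Figure D4:**
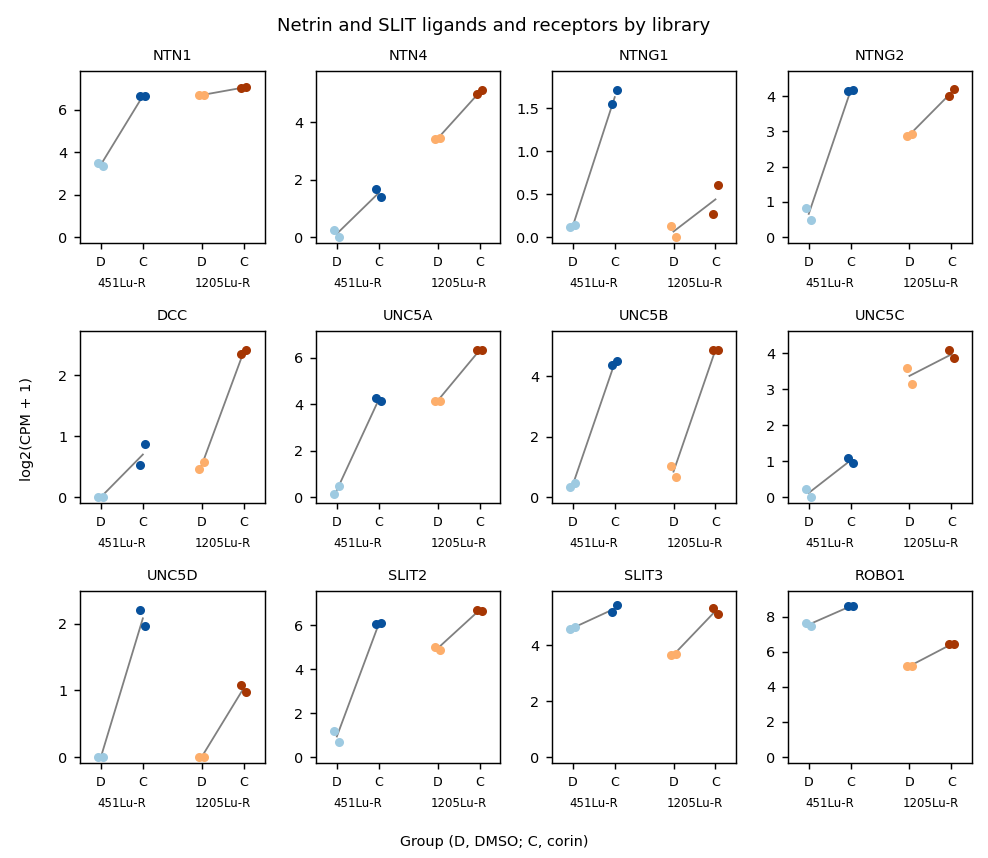
Level of the 12 netrin and SLIT pathway genes that rose in a line, apart from ROBO2, in each library, as log2(CPM + 1), with DMSO (D) and corin (C) in each line, each point 1 library and gray lines joining group means. All corin points lie above the DMSO points of their line, and NTN1 with corin in 451Lu-R (100 and 98.9 CPM) comes to the level of 1205Lu-R with DMSO.

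Opposite calls in the 2 lines were made for 9 members. SEMA3A, SEMA6A, SEMA6D, PLXNC1, PLXND1 and ROBO2 fell in 451Lu-R but rose in 1205Lu-R, while PLXNA2, PLXNA4 and PLXNB1 rose in 451Lu-R but fell in 1205Lu-R. For each of the 9 the line with the higher DMSO level was the line in which the gene fell, though the same DMSO libraries enter the level and the change. Opposite calls were 23.7% of the 38 members tested in both lines, against 10.1% of genes, and 7 of the 25 above the cutoff in all 8 libraries, against 10.5%. PLXNC1 and ROBO2 passed the filter in 1205Lu-R through their corin libraries alone. The contrast was widest for PLXNA4, which rose from 0.964 and 1.28 to 8.18 and 10.2 CPM in 451Lu-R (log2 change 3.01 ± 0.260, adjusted p = 2.086e-09) and fell from 231 in both libraries to 56.4 and 57.5 CPM in 1205Lu-R (-2.002 ± 0.0406, adjusted p = 6.06e-21). The gap in PLXNA4 between the lines went from 205.5-fold with DMSO to 6.24-fold with corin. PLXNC1 mirrored it, falling from 259 and 244 to 90.7 and 85.4 CPM in 451Lu-R (-1.54 ± 0.0394, adjusted p = 7.826e-18) and rising from 0.846 and 1.46 to 6.46 and 6.76 in 1205Lu-R (2.53 ± 0.283, adjusted p = 4.369e-08), so that its gap went from 217.2-fold to 13.3-fold.

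SEMA3A, a ligand of the NRP1 and class A plexin complex, fell from 29.9 and 29.2 to 19.97 and 18.5 CPM in 451Lu-R (log2 change -0.64 ± 0.0866, adjusted p = 1.38e-06) and rose from 1.79 and 1.76 to 16.6 and 13.7 in 1205Lu-R (3.10 ± 0.198, adjusted p = 3.57e-12), nearly closing a 16.6-fold gap to 1.28-fold. PLXNA2 rose from 6.57 and 6.49 to 11.9 and 13.3 CPM and fell in 1205Lu-R from 79.2 and 75.2 to 40.6 and 42.0, each by just under 2-fold. SEMA6D fell from 16.0 and 15.8 to 8.54 and 7.66 CPM and went from 1.41 and 2.34 to 3.49 and 4.13 in 1205Lu-R (1.05 ± 0.299, adjusted p = 0.00323), a rise that DESeq2 did not call (adjusted p = 0.0594). ROBO2 fell from 19.4 and 20.2 to 4.75 and 6.73 CPM, while its rise in 1205Lu-R rested on 4 and 8 counts against 11 and 17 and was lost with DESeq2 (adjusted p = 0.2207). PLXND1 more than doubled in 1205Lu-R, from 28.9 and 31.4 to 65.8 and 63.6 CPM, and SEMA6A rose there from 11.2 and 12.3 to 42.7 and 40.7.

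The 451Lu-R falls of PLXND1 and SEMA6A were slight. PLXND1 went from 92.7 and 91.5 to 88.5 and 82.2 CPM in 451Lu-R and SEMA6A from 188 and 201 to 189 and 181, ranges that for SEMA6A overlapped, and DESeq2 called neither fall (adjusted p = 0.2468 and 0.2568). PLXNB1, the receptor of SEMA4D, changed by less than 1.4-fold in each line, from 5.61 and 5.21 to 7.48 and 7.87 CPM and from 7.05 and 7.22 to 5.23 and 5.27, and DESeq2 called neither change (adjusted p = 0.1763 and 0.2571). SEMA3A, PLXNA2, PLXNA4 and PLXNC1 kept both calls in every alternative run.

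**Figure D5:**
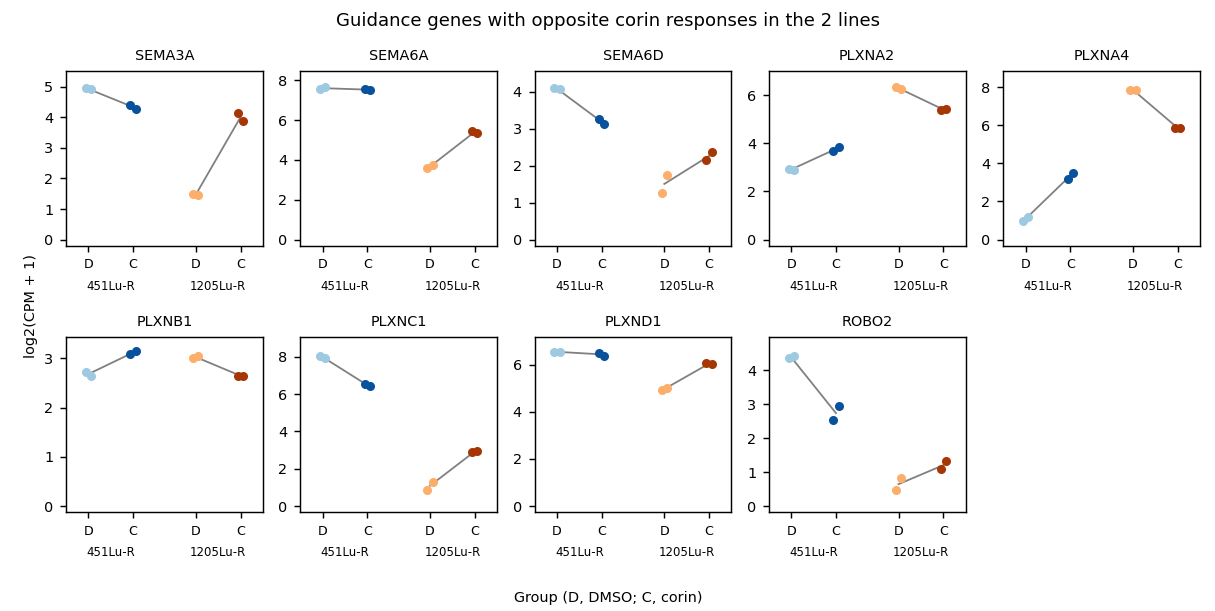
Level of the 9 members called in opposite directions in the 2 lines, in each library, as log2(CPM + 1), with DMSO (D) and corin (C) in each line, each point 1 library and gray lines joining group means. The lines of PLXNA4 and PLXNC1 converge most, from 205.5-fold and 217.2-fold gaps, and the SEMA6A and PLXND1 changes in 451Lu-R are near flat.

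With corin, as with DMSO, 20 members were higher and 20 lower in 1205Lu-R than in 451Lu-R, against 38% and 39% of genes. Differences of 4-fold numbered 9 higher and 8 lower, against 8.17% and 8.24%, where with DMSO they had numbered 12 and 12. Of these with corin, ROBO4 in 451Lu-R and NTNG1 in 1205Lu-R had 10 or fewer summed counts in the lower line. NRP1 had the widest gap at 272.6-fold, UNC5C was 13.9-fold and NTN4 16.5-fold higher, and SEMA5A was 9.96-fold lower in 1205Lu-R. SEMA3B, SEMA4F, SLIT3 and NTNG2 were not called between the lines with corin, having been called with DMSO, and their log2 differences were -0.06 ± 0.121, 0.08 ± 0.0487, -0.09 ± 0.0855 and -0.06 ± 0.119.

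Other genes of the pathway were counted from a list of 64 coreceptors, ligands and cytoplasmic effectors. In 451Lu-R, 55 were tested, of which 32 rose and 19 fell (58.2% and 34.5%, against 41.3% and 38.6% of all genes). In 1205Lu-R, 55 were tested, of which 22 rose and 27 fell (40% and 49.1%, against 40.4% and 37.8%). The 24 coreceptors and other ligands or receptors mostly rose, 12 of 16 tested for 451Lu-R and 11 of 17 for 1205Lu-R. Genes of the list could pass the filter through their corin libraries alone, and these counts were not split by that. The cytoplasmic effectors did not share the rise in 1205Lu-R, where 11 rose and 22 fell of 38 tested, beside 20 and 16 of 39 in 451Lu-R. NRCAM, an adhesion molecule that joins semaphorin receptor complexes, rose from a mean of 1.40 to 71.3 CPM in 451Lu-R and from 0.766 to 57.0 in 1205Lu-R (log2 fold changes 5.65 ± 0.153 and 6.21 ± 0.148). In 1205Lu-R, with 8 counts in each DMSO library, it passed the filter through its corin libraries alone. KDR, the VEGF receptor that partners neuropilins, rose by 2.99 ± 0.0964 and 5.08 ± 0.215 on the log2 scale. MICAL2, an actin-oxidizing enzyme of the plexin-linked MICAL family, rose in 451Lu-R by 5.83 ± 0.212 and fell in 1205Lu-R by 0.86 ± 0.0316 on the log2 scale.

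The largest falls on this list in 451Lu-R were FES, a kinase linked to semaphorin signaling (log2 change -3.28 ± 0.164), CHL1 (-1.52 ± 0.0768) and the plexin effector FARP2 (-1.32 ± 0.0332). In 1205Lu-R they were VEGFA, a ligand of NRP1 (-1.21 ± 0.0399), the ROBO effector SRGAP1 (-1.03 ± 0.0865) and ERBB2 (-0.94 ± 0.0700). NEO1, the DCC relative that also binds netrins and RGM proteins, rose alike in both lines, from a mean of 56.8 to 105 CPM and from 59.8 to 105 (0.87 ± 0.0505 and 0.83 ± 0.0470). Each change named for these pathway genes had an adjusted p under 0.001.

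Members that could not be tested in either line were SEMA4A, SEMA5B, SLIT1, NTN3 and NTN5, and the highest value among them was 14.003 estimated counts, of SEMA5B in a 451Lu-R corin library. NTN3 had at most 4 counts, and SLIT1 at most 10. In 451Lu-R the counting intervals of the corin to DMSO ratio lay above 1 for SEMA5B (6.85, 2.03 to 35.98) and SLIT1 (2.91, 1.095 to 9.012).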

How the data were processed

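RNA-Seq of 8 libraries was used. The authors used Trimmomatic and then Salmon, with GENCODE 32 transcripts, and deposited estimated counts summed to genes, with tool versions and strandedness not given in the sources used here. Files on 8 further libraries, treated with PLX4032 with or without corin, hold only the authors' own fold changes and adjusted p-values and were not used.

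Genes were named by identifier with GENCODE 44. The deposited estimated counts were rounded, filtered with filterByExpr, TMM-normalized and tested with edgeR 4.0.16 in R 4.3.3 (quasi-likelihood test, 2-sided), with Benjamini-Hochberg adjustment over all genes tested, within each line for the corin response and over all 8 libraries for the contrasts between lines. "Rose" and "fell" mean an adjusted p under 0.05, and the stricter rule adds a 4-fold change with an adjusted p under 0.001. SE is that of the log2 fold change. CPM per kb divides by the GENCODE 44 exon length. Where a group held 10 or fewer summed counts, the ratio of counts with an exact 95% interval is given, which covers counting error only.

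Values in every library are given for members with a 4-fold change in either line, members called in opposite directions and the 6 highest per kilobase in each line with DMSO. Of the pathway list, the 3 largest changes in each direction and line with an adjusted p under 0.001 and a minimum mean of 1 CPM are named, with NEO1, except for 1 gene that is not reported here. The members, lists and rules were chosen with earlier results of these data known. Replicate numbers were in the titles, but same-numbered libraries did not deviate together (correlation of deviations -0.0145 for 451Lu-R, -0.00528 for 1205Lu-R), and they were not paired. Alternatives were DESeq2 1.42.0, RLE size factors, library size alone, the filter left off, a minimum mean of 1 CPM, all 8 libraries in 1 fit, a replicate block and leaving out each library.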

Additional observations from a re-analysis of the deposited data

Results flagged for a closer look

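The corin response differed between the lines, with opposite calls, for 9 guidance genes. Opposite calls were 23.7% of the 38 members tested in both lines, against 10.1% of 13200 genes. Among the 25 members above the filter cutoff in all 8 libraries they numbered 7, against 10.5% of 11245 genes. PLXNC1 and ROBO2 passed the filter in 1205Lu-R through their corin libraries alone, which left little or no room for a fall there. With DESeq2, SEMA6A, SEMA6D, PLXNB1, PLXND1 and ROBO2 lost the call in at least 1 line. Each difference is the log2 change in 1205Lu-R minus that in 451Lu-R, from the edgeR test of the difference over the 8 libraries. It was largest for the plexins PLXNA4 at -5.0421 (SE 0.213, adjusted p = 2.032e-14) and PLXNC1 at 4.0302 (SE 0.258, adjusted p = 2.181e-11). The secreted SEMA3A differed by 3.695 (SE 0.208, adjusted p = 2.457e-12) and ROBO2 by 2.9923 (SE 0.499, adjusted p = 3.336e-05). The transmembrane SEMA6D and SEMA6A differed by 2.0025 and 1.897, and the plexins PLXNA2 by -1.8437, PLXND1 by 1.2068 and PLXNB1 by -0.9393. The DMSO and corin libraries of a line did not overlap for these genes, except for SEMA6A in 451Lu-R.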

How the results depend on the processing

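The counts of members called at an adjusted p under 0.05 stayed within 1.5 times under all alternatives, at 25 to 31 rising for 451Lu-R and 29 to 32 for 1205Lu-R with every library in. The number that fell 4-fold in 1205Lu-R, 1 (PLXNA4, at 4.005-fold), became 0 with DESeq2, with RLE size factors, with library size alone and with a minimum mean of 1 CPM, and was 0 to 1 when a library was left out (0 without corin replicate 1). In 451Lu-R it was 0, and 0 to 1 when a library was left out (1 without corin replicate 2). PLXNB2 in 451Lu-R, 0.0145 and not called, turned to -0.0837 with library size alone (called, adjusted p = 0.02843) and -0.0039 without a filter, and ranged from -0.0145 (without DMSO replicate 2) to 0.0457 when a library was left out. SEMA7A in 451Lu-R became called with library size alone (-0.2029, adjusted p = 0.02337). The cause was not tested. Over genes and settings, 32 calls were lost with the same direction, the 2 named here were gained, 3 values (of PLXNB2) changed sign and 654 kept direction and call.

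Leaving out a library left 1 in its group, assumed to vary like the others, and these calls were then lost. In 451Lu-R they were SEMA6A without DMSO replicate 2 or corin replicate 2 (adjusted p = 0.3909 and 0.1657), PLXND1 without DMSO replicate 1 or corin replicate 2 (0.05707 and 0.2024) and PLXNB1 without DMSO replicate 2 or corin replicate 2 (0.08065 and 0.07066). In 1205Lu-R they were PLXNB1 without any 1 of its 4 libraries (0.07526 to 0.1041), ROBO2 without DMSO replicate 1, corin replicate 1 or corin replicate 2 (0.1981, 0.05881 and 0.2458), SEMA6D without DMSO replicate 1 (0.06263) and PLXNB2 without DMSO replicate 2 (0.1117). With the replicate block, 27 members rose and 9 fell for 451Lu-R, 31 and 10 for 1205Lu-R, and no call changed. Depth left genes with few counts, such as NTN3 and, in 1205Lu-R, NTNG1, without a test.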
